A study of Mus musculus with 6 samples.

Results

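The genes described here are 46 genes of mitosis, the kinetochore and cytokinesis, out of 25526 genes listed in each deposited table. They were taken by symbol, and every symbol matched 1 row in each of the 6 tables. Poly(A) RNA was sequenced in bulk from MOC2, a line derived from a mouse oral squamous carcinoma, in 3 parental cultures that are wild-type for p62 and 3 cultures carrying a CRISPR-Cas9 knockout of p62. p62 is the selective autophagy receptor encoded by Sqstm1. Both groups grew in DMEM with fetal bovine serum and received no treatment before harvest, and the series design calls the replicates biological. Whether the knockout cells are 1 clone, several clones or a pool is not stated, and p-values refer to the spread among these 6 cultures.

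Mitosis is driven by cyclin B bound to the kinase Cdk1, together with the Polo and Aurora kinases. Condensin and topoisomerase II compact the chromosomes, kinetochores attach them to spindle microtubules, and the spindle checkpoint holds back the anaphase-promoting complex until all are attached. Separase then cuts cohesin once its inhibitor securin is degraded, and the central spindle and contractile ring divide the cell. Transcripts of most of these genes are low in G1 and peak in G2 and M phase, so in a growing carcinoma line their summed level is commonly read as a proliferation signature. In bulk RNA, a larger share of dividing cells and more of these transcripts in each dividing cell cannot be told apart.

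Libraries held between 32821860 and 41763980 exon reads, and the 46 genes together took between 31493 and 235850 reads in a library. Sqstm1, the targeted gene, stood at 1567, 1783 and 2103 CPM (reads scaled to library size with TMM factors) in parental replicates 1 to 3, and at 117, 589 and 125 CPM in knockout replicates 1 to 3. Knockout replicate 2 thus kept 32.4% of the parental mean, against 6.41% and 6.9% in the other 2 knockout libraries. Sqstm1 was lower in knockout cells (log2 fold change -2.71 ± 0.65, SE, n = 3 per group; edgeR adjusted p = 0.048). Without knockout replicate 2 the estimate was -3.93 (edgeR adjusted p = 0.000399), and without any 1 of the other 5 libraries the call was lost (edgeR adjusted p = 0.0959 to 0.178). Of 10 epithelial markers 8 reached 1 TPM or more, among them Krt8 at 654 to 2288 TPM and Epcam at 453 to 800 TPM. Of the markers of basal squamous cells, Krt5 and Trp63 were below 1 TPM in every library. Krt14, also of basal cells, was at 20, 25.8 and 22.9 TPM in parental and 50.8, 12.6 and 54.3 TPM in knockout replicates 1 to 3. All 4 endothelial markers and 5 of 6 leukocyte markers were below 1 TPM, Cd3e at 0; Cd68 was the exception, at 38.1 to 42.4 TPM in parental and 4.99 to 7.89 TPM in knockout libraries.

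The mitosis genes moved together between libraries, in an order that did not fully separate the genotypes. Their summed TPM (reads per exon length, scaled to the library) was 542, 1321 and 1976 in parental replicates 1 to 3 and 4836, 647 and 4626 in knockout replicates 1 to 3. Knockout replicates 1 and 3 were therefore far above every parental library, while knockout replicate 2 lay between parental replicates 1 and 2. As a share of all TPM, the 46 genes took 0.128 ± 0.0718% in parental and 0.337 ± 0.236% in knockout cells (mean ± SD, n = 3 each), and the group ranges overlapped.

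**Figure D1:**
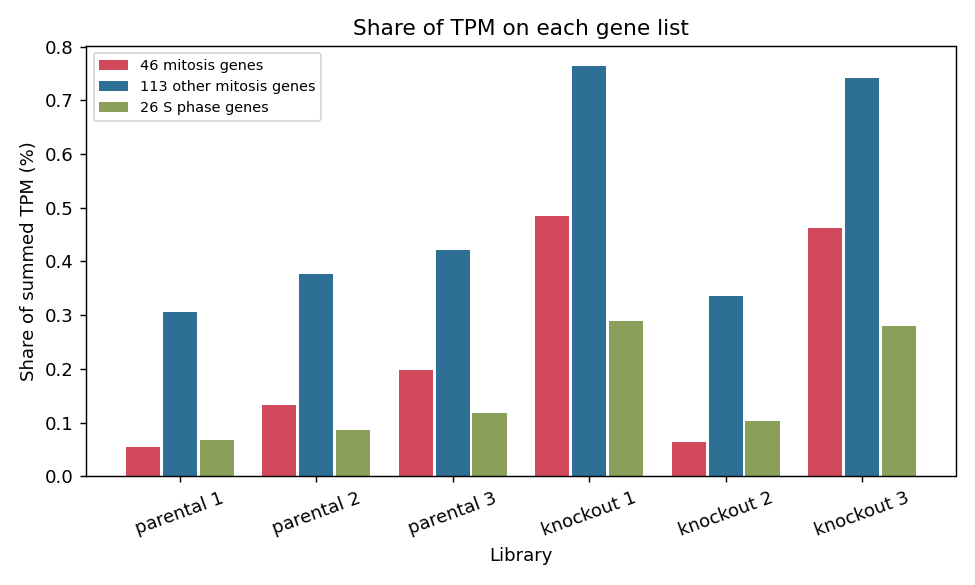
Share of each library's summed TPM, in percent, taken by the 46 mitosis genes, 113 other mitosis genes and 26 S phase genes, 1 bar per list and library. The 46 genes take 0.484% and 0.463% in knockout replicates 1 and 3, against 0.0542% to 0.198% in the parental libraries and 0.0647% in knockout replicate 2.

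The order of the libraries was nearly the same gene by gene. In 46 of 46 genes parental replicate 1 was the lowest and parental replicate 3 the highest of the parental libraries, an order seen in 21.7% of all 12775 tested genes. Knockout replicates 1 and 3 were both above every parental library in 45 of 46 genes (32.5% of all tested genes), the exception being Pttg1. In 43 genes parental replicate 1 and knockout replicate 2 were both below parental replicate 2, which was below parental replicate 3, which was below knockout replicates 1 and 3. That arrangement held in 5.32% of all tested genes, and the members without it were Pttg1, Spc24 and Smc2.

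The spread within a genotype was larger than for most genes. Across the parental libraries the highest TPM was a median of 4.6 times the lowest for the 46 genes, against 1.3 times for all tested genes with reads in every library. Across the knockout libraries the median was 9 times, against 1.44. Knockout replicates 1 and 3 were close to each other, with TPM ratios between 0.858 (Mki67) and 1.14 (Ncaph). A chi-square statistic over the 46 genes gave 9.54 per degree of freedom for that pair, where sampling noise alone gives 1. The remaining 5 same-genotype pairs gave 215 to 3984. All 6 libraries were counted as separate.

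Other measures of the libraries were set beside this order. Libraries with high mitosis transcripts were shallower: knockout replicates 1 and 3 and parental replicate 3 held 32821860, 34301376 and 33349014 exon reads, against 39185828, 38490029 and 41763980 in parental replicates 1 and 2 and knockout replicate 2. The 26 S phase genes took 0.0674%, 0.0866% and 0.118% of TPM in parental replicates 1 to 3 and 0.289%, 0.102% and 0.28% in knockout replicates 1 to 3. Vim, the mesenchymal filament gene, was at 269, 511 and 719 TPM in parental replicates 1 to 3 and at 886, 201 and 868 TPM in knockout replicates 1 to 3. Vim made up nearly all of the summed TPM of the 6 fibroblast or mesenchymal markers, 272 to 723 in parental and 201 to 887 in knockout libraries. Col1a2, Pdgfrb and Dcn were below 1 TPM. Col3a1 was at 1.45, 5.09 and 2.3 TPM in parental and 0.656, 0.388 and 0.57 TPM in knockout replicates 1 to 3. Its log2 fold change was -2.375 (edgeR adjusted p = 0.0355). Col1a1 was at 0.754, 1.03 and 1.03 TPM and at 0.372, 0.0787 and 0.285 TPM. For both, every knockout library was below every parental library, as in 22.3% of all tested genes. The mitochondrial share of reads was 1.51%, 1.32% and 1.68% in parental replicates 1 to 3 and 0.91%, 1.71% and 1.3% in knockout replicates 1 to 3, and did not follow the order of the mitosis genes. The part of depth, S phase transcripts and Vim in that order was not tested.

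**Figure D2:**
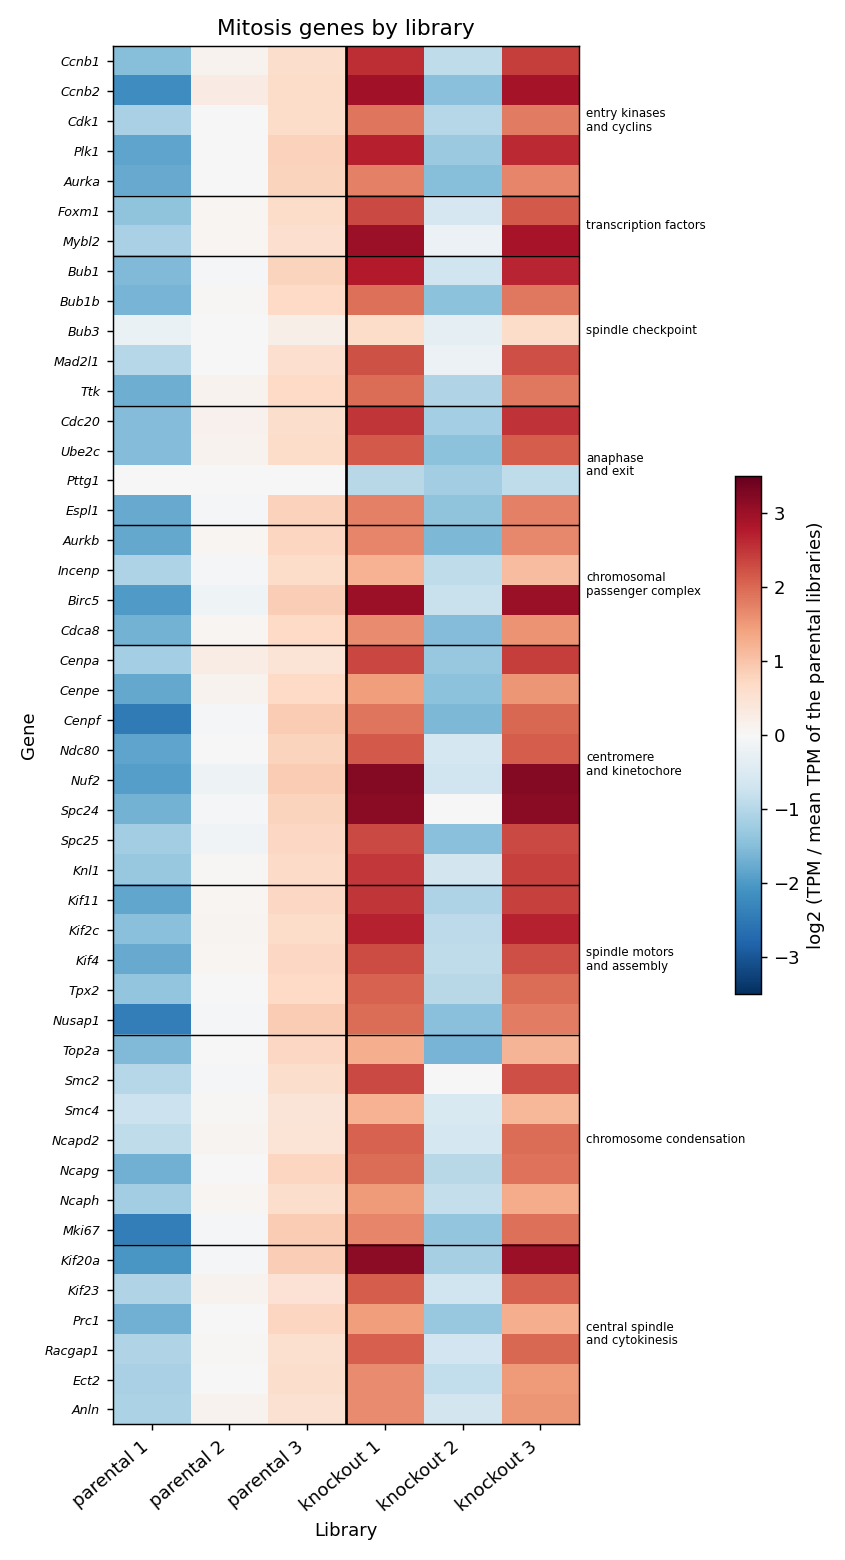
Colour gives log2 of a gene's TPM in a library over its mean TPM in the 3 parental libraries, with 1 row per gene grouped by role and 1 column per library. Parental replicate 1 and knockout replicate 2 are blue in nearly every row and knockout replicates 1 and 3 red, except Pttg1, which is near 0 in the parental and blue in the knockout columns.

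Many promoters of such genes are known to carry a CHR element, bound by the MuvB complexes that B-Myb and FoxM1 join, and CCAAT boxes bound by NF-Y. RefSeq (GRCm38.p6) gave 42 promoter windows, from 250 bases before to 50 after a start, for 39 of the 46 genes. The searched letters were TTTGAA or TTCGAA for the CHR, CCAAT, and TTTCGCGC, TTTGGCGC or TTTCCCGC for E2F sites, each on both strands. CHR letters were in 33 of 42 windows (78.6%), against 19.2% of all 32851 windows in the table. CCAAT was in 31 windows (73.8%, against 37.4%), both were in 29 (69.0%, against 7.52%), and E2F letters were in 3 (7.14%, against 1.84%). The windows below are lower case with the searched letters in capitals, on the gene's strand. Ccnb2 (chr9:70421505-70421804, minus strand) and Plk1 (chr7:122159185-122159484, plus strand) are shown as genes with both elements near the start. Top2a (chr11:99024140-99024439, minus strand) had the most matches and the highest parental level. Nuf2 (chr1:169531415-169531714, minus strand) had the largest fold change estimate, and Pttg1 (chr11:43425932-43426231, minus strand) was the only gene that fell. Neither of these last windows holds any of the searched letters.
Ccnb2: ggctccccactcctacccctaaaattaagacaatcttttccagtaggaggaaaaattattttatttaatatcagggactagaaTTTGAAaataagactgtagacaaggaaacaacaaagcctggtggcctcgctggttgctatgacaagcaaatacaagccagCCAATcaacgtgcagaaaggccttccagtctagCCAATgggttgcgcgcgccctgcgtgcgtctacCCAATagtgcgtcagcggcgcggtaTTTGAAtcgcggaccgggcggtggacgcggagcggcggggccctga
Plk1: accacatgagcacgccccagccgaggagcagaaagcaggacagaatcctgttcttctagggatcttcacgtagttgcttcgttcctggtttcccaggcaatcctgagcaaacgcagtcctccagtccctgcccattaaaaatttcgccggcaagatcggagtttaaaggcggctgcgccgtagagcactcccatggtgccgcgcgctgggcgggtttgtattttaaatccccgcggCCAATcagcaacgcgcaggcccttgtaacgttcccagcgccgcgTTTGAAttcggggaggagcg
Top2a: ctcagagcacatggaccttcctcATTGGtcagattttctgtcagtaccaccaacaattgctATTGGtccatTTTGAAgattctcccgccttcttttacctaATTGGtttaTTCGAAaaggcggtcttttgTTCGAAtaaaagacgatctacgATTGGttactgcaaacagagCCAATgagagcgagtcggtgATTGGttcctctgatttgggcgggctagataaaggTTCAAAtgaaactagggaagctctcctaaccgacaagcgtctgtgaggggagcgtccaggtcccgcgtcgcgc
Nuf2: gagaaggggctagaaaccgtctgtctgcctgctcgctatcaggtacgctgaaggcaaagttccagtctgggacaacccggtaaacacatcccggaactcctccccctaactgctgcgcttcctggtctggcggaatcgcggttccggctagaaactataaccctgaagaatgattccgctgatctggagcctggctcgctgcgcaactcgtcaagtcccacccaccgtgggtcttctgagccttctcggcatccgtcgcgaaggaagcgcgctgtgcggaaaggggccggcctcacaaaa
Pttg1: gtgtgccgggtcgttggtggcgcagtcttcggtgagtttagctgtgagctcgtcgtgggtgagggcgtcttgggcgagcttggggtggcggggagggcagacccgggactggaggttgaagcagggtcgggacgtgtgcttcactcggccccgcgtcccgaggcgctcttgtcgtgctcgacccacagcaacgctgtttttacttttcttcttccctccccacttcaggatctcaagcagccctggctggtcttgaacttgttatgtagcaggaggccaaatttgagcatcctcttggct

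Ccnb2 held CCAAT starting 87, 54 and 21 bases before the start and TTTGAA 167 bases before and 5 bases after it. Plk1 had a single CCAAT 14 bases before and TTTGAA 31 bases after the start. Top2a held 6 CCAAT and 4 CHR matches, all before the start. Of the 39 genes, 26 held both elements, 6 only 1 of them and 7 neither (Birc5, Mad2l1, Mybl2, Ncaph, Nuf2, Nusap1 and Pttg1). The log2 fold changes of these 7 ranged from -0.94 to 2.72 with a median of 1.82, and those of the 26 from 0.45 to 2.42 with a median of 1.53. The ranges overlap, and a match of letters describes the sequence, not binding.

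In the comparison of knockout with parental cells, 0 of the 46 genes were higher and 1 was lower at an adjusted p below 0.05 (edgeR quasi-likelihood test, group as the only term, Benjamini-Hochberg adjustment over 12775 genes). Over all tested genes, 3.48% were called higher and 5.60% lower (9.08% in either direction). Unadjusted p-values were below 0.05 for 11 of the 46 genes (23.9%), 10 of them with a positive estimate, a smaller share than the 32.5% of all tested genes. The median log2 fold change was 1.60 for the 46 genes and 0.02 for all tested genes, and SEs ran up to 1.09 (Ccnb2 and Kif20a). DESeq2 called 5 higher (10.9%, against 11.6% of all genes): Mybl2, Mad2l1, Spc24, Smc2 and Ncapd2. Limma-voom called 0 higher, against 2.68% of all genes. Both tools called Pttg1 lower, where DESeq2 called 11.0% of all genes lower (22.6% in either direction) and limma-voom 5.45% (8.13% in either direction). Without knockout replicate 2, edgeR called 33 of 46 higher (71.7%, against 23.0% of all genes) and 1 lower (against 23.2%, and 46.2% in either direction), with a median log2 fold change of 2.06. That fit rests on 2 knockout libraries that are close to each other.

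**Figure D3:**
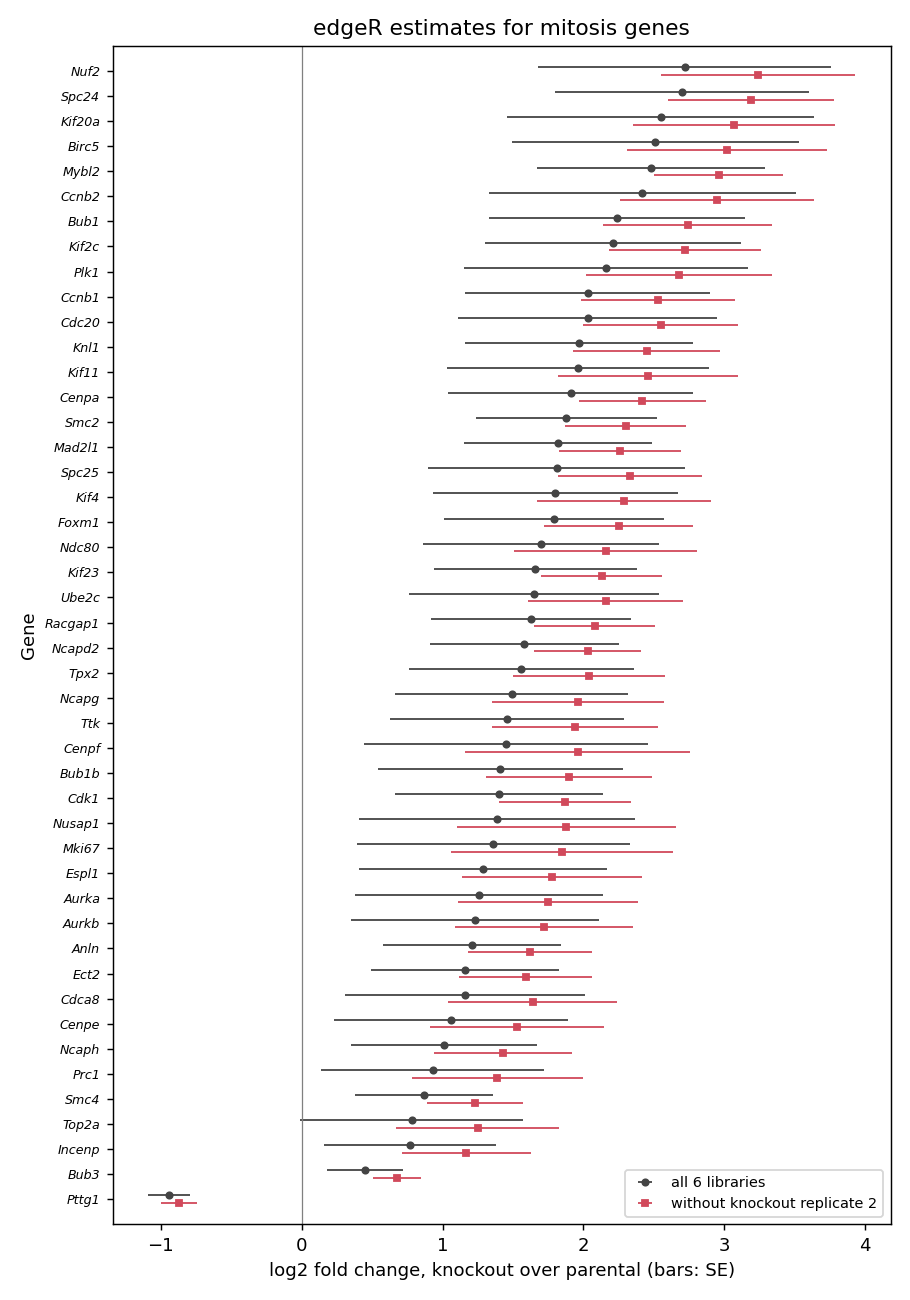
edgeR log2 fold changes, knockout over parental, with their SE, for the 46 genes from all 6 libraries (circles) and without knockout replicate 2 (squares). Estimates from all 6 libraries run from -0.94 for Pttg1 to 2.72 for Nuf2, and the SEs shrink for every gene without knockout replicate 2.

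Pttg1 (ENSMUSG00000020415), which encodes securin, the inhibitor of separase, was the gene that fell. Its level was 40.5, 41.1 and 41.6 TPM in parental replicates 1 to 3 and 21, 17.7 and 22.4 TPM in knockout replicates 1 to 3. The groups did not overlap, knockout replicate 2 was as low as the others, and the parental libraries differed by a factor of only 1.03. This was a log2 fold change of -0.94 ± 0.15 (SE, n = 3 per group; adjusted p = 0.0224 by edgeR), lower in 3 of 3 knockout libraries, where groups without overlap in this direction made up 22.3% of all tested genes. The call was lost without parental replicate 2 or 3 or knockout replicate 1 or 3 and with the replicate number as a block (edgeR adjusted p between 0.0623 and 0.126). Over all 16 other settings the estimate lay between -1.03 and -0.87 and the adjusted p between 2.23e-06 and 0.133. Between 488 and 1119 reads per library stood behind these values, all counted as unique at the precision shown (100%). Pttg1 lies on chromosome 11, as does Sqstm1, and the other members there, Aurkb, Birc5 and Top2a, had log2 fold changes of 1.23, 2.51 and 0.78. The distances of these genes from Sqstm1 were not compared.

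Espl1 encodes separase, the protease that securin holds inactive, and it followed the other genes. The TPM of Pttg1 was 19.2, 5.96 and 3.3 times that of Espl1 in parental replicates 1 to 3, and 0.857, 6.57 and 0.922 times in knockout replicates 1 to 3. The ratio was thus below 1 in knockout replicates 1 and 3 and above 3 in the other 4 libraries. Its Espl1 part was not called (log2 fold change 1.29 ± 0.88, SE; edgeR adjusted p = 0.339).

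Of the 5 entry kinases and cyclins, 0 were called, with log2 fold changes of 1.26 to 2.42 and edgeR adjusted p-values of 0.158 to 0.35. Ccnb1, cyclin B1, the main activator of Cdk1 at mitotic entry, was at 14.5, 44.5 and 62.5 TPM in parental and 241, 22 and 218 TPM in knockout replicates 1 to 3. Ccnb2, cyclin B2, was at 5.68, 30.9 and 39.9 TPM and at 196, 9.33 and 192 TPM. For both cyclins knockout replicate 2 lay between parental replicates 1 and 2, so the groups overlapped. Ccnb2 spanned 21 times between its lowest and highest knockout library, more than any other of the 46 genes. Without knockout replicate 2, 4 of the 5 were higher, where 23.0% of all genes were. Ccnb2 was higher there by a log2 fold change of 2.95 ± 0.69 (SE; edgeR adjusted p = 0.0157). Aurka, the centrosomal Aurora kinase, did not pass there either (log2 fold change 1.75, adjusted p = 0.0639). Cdk1 and Plk1, the Polo kinase, gave estimates of 1.40 and 2.16 with all 6 libraries.

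Of the 2 transcription factors of this programme, 0 were called with all 6 libraries. Mybl2, B-Myb, which joins MuvB ahead of FoxM1, was at 4.68, 10.6 and 15.4 TPM in parental replicates 1 to 3 and at 81.3, 8.85 and 75 TPM in knockout replicates 1 to 3. Foxm1 was at 6.4, 17.8 and 26.4 TPM and at 84.3, 11.3 and 74.2 TPM. Knockout replicate 2 was within the parental range for both. The log2 fold changes were 2.48 ± 0.81 for Mybl2 and 1.79 ± 0.78 for Foxm1 (SE; edgeR adjusted p = 0.0898 and 0.161). DESeq2 called Mybl2 (adjusted p = 0.0411), and both were called higher by edgeR without knockout replicate 2 (against 23.0% of all genes).

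Among 5 spindle checkpoint genes the estimates ran from 0.45 for Bub3 to 2.24 for Bub1, a kinase that recruits the checkpoint to kinetochores, and 0 were called by edgeR. Bub1 was at 4.77, 13.3 and 23.9 TPM in parental and 96, 8.58 and 88.8 TPM in knockout replicates 1 to 3. Mad2l1, the Mad2 protein that inhibits Cdc20, was lower in level, at 3.14, 6.36 and 9.5 TPM and at 29.4, 5.53 and 30.1 TPM. Bub3, a WD-repeat partner of Bub1 and BubR1, was the steadiest of the positive genes, at 49.9, 57.9 and 68.1 TPM and at 91.4, 47.4 and 91.4 TPM. It differed 1.36-fold across the parental libraries, where Bub1 differed 5.01-fold. Without knockout replicate 2 all 5 were higher, where 23.0% of all genes were. Bub3 was higher there by a log2 fold change of 0.68 ± 0.17 (SE; edgeR adjusted p = 0.0191). Bub1b, encoding BubR1, and Ttk, the Mps1 kinase, gave 1.41 and 1.46 with 6 libraries.

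Next to Pttg1 and Espl1, the anaphase genes include Cdc20, the activator of the anaphase-promoting complex, and Ube2c, its ubiquitin-conjugating enzyme. Cdc20 was at 12.8, 40.6 and 55.7 TPM in parental and 208, 16.1 and 209 TPM in knockout replicates 1 to 3. Ube2c was at 16.3, 50.8 and 72.4 TPM and at 207, 17.1 and 202 TPM. For both, knockout replicate 2 lay between parental replicates 1 and 2. Their log2 fold changes of 2.03 and 1.65 did not pass with all 6 libraries. Both passed without knockout replicate 2 (edgeR adjusted p = 0.0118 and 0.0211), where 23.0% of all genes were called higher.

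The chromosomal passenger complex, which corrects faulty attachments, was uneven. Birc5, survivin, was at 2.91, 10.3 and 20.9 TPM in parental replicates 1 to 3 and at 90.6, 6.67 and 92.4 TPM in knockout replicates 1 to 3. Incenp, the scaffold of the complex, was at 26.8, 53.9 and 88.5 TPM and at 130, 30.5 and 120 TPM. Survivin transcripts in knockout replicate 1 were thus 4.34 times those of parental replicate 3, while Incenp transcripts were 1.47 times. The kinase Aurkb and Cdca8, borealin, lay between Incenp and Birc5 in this ratio, at 1.95 and 1.93, and nearer to Incenp. With 6 libraries 0 of 4 were called, and without knockout replicate 2 Birc5 alone passed (log2 fold change 3.02 ± 0.71, SE; edgeR adjusted p = 0.0153). Without that library 23.0% of all genes were called higher.

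Centromere and kinetochore genes held the largest estimates. Nuf2 (ENSMUSG00000026683), of the microtubule-binding Ndc80 complex, was at 1.73, 5.77 and 12.1 TPM in parental and 61, 4.07 and 61.3 TPM in knockout replicates 1 to 3. Spc24, of the same complex, was at 1.23, 3.8 and 6.66 TPM and at 34.8, 3.86 and 34.9 TPM. Its lowest library held 44 reads, the fewest of any of the 46 genes. Knockout replicate 2 was just above parental replicate 2 for Spc24 and below it for Nuf2. The log2 fold changes were 2.72 ± 1.04 for Nuf2 and 2.70 ± 0.90 for Spc24 (SE; edgeR adjusted p = 0.125 and 0.0937), and DESeq2 called Spc24 (adjusted p = 0.0434). The other members of that complex, Ndc80 and Spc25, gave 1.70 and 1.81. Cenpa, the centromeric histone H3 variant, was at 16, 43.3 and 50.4 TPM and at 186, 14.6 and 197 TPM, with knockout replicate 2 the lowest of all libraries. Knl1, the kinetochore scaffold for Bub1, had the lowest parental mean of the 46, at 3.11 TPM, and an estimate of 1.97. Cenpe, a kinetochore kinesin, and Cenpf, a large coiled-coil protein, gave 1.06 and 1.45. They were the 2 of these 8 that did not pass without knockout replicate 2 (edgeR adjusted p = 0.0878 and 0.0873). Without that library 23.0% of all genes were called higher.

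Spindle motors and assembly factors gave 1.39 to 2.21 with 0 of 5 called. Kif2c, the MCAK depolymerase of the centromere, was at 3.43, 10.2 and 14.7 TPM in parental and 61.4, 4.98 and 61.2 TPM in knockout replicates 1 to 3. Tpx2, which activates Aurora A on the spindle, was at 10.1, 26.5 and 42.8 TPM and at 111, 13.5 and 103 TPM. Knockout replicate 2 lay between parental replicates 1 and 2 for both. Kif11, the Eg5 motor that pushes the poles apart, and Kif4, a chromokinesin, gave 1.96 and 1.80. These 4 passed without knockout replicate 2 (against 23.0% of all genes called higher), while Nusap1, a microtubule bundler, did not (edgeR adjusted p = 0.092).

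The 7 chromosome condensation genes included the 2 with the highest parental means, Top2a and Smc4, and others from the middle of the order. Top2a (ENSMUSG00000020914), topoisomerase II alpha, had a parental mean of 116 TPM, at 40.1, 118 and 191 TPM in parental and 280, 37.6 and 265 TPM in knockout replicates 1 to 3. Its knockout replicate 2 was below every parental library, and its edgeR adjusted p of 0.518 was the highest of the 46 (log2 fold change 0.78 ± 0.79, SE). Smc2, an ATPase of condensin, was at 7.75, 15.1 and 23.4 TPM and at 76.4, 15.5 and 73.2 TPM. For Smc2 knockout replicate 2 was level with parental replicate 2, with an estimate of 1.88 ± 0.64 on the log2 scale (SE; adjusted p = 0.0985 by edgeR and 0.00737 by DESeq2). Its partner Smc4 gave 0.87, and the condensin I subunits Ncapd2, Ncapg and Ncaph gave 1.58, 1.49 and 1.01. Mki67, the Ki-67 proliferation antigen, differed 9.88-fold across the parental libraries and gave 1.36 ± 0.97. Without knockout replicate 2, 4 of these 7 were higher (against 23.0% of all genes). Top2a, Ncaph and Mki67 were not called there (edgeR adjusted p = 0.121, 0.0527 and 0.101).

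For the central spindle and cytokinesis, 0 of 6 genes were called and estimates ran from 0.93 to 2.55. Kif20a, the MKLP2 kinesin, was at 3.39, 13.4 and 25.3 TPM in parental and 123, 6.22 and 111 TPM in knockout replicates 1 to 3. Anln, the contractile ring scaffold anillin, was at 29.3, 68.4 and 90.7 TPM and at 197, 40.5 and 183 TPM. Both again had knockout replicate 2 between parental replicates 1 and 2. Kif23 and Racgap1, the 2 subunits of centralspindlin, were alike, with estimates of 1.66 and 1.63 and with knockout replicate 1 at 3.05 and 2.88 times parental replicate 3. Ect2, the RhoA exchange factor that centralspindlin recruits, gave 1.16, and Prc1, the bundler of the central spindle, 0.93. All but Prc1 passed without knockout replicate 2 (Prc1 edgeR adjusted p = 0.107), where 23.0% of all genes were called higher. Kif20a and Prc1 were the members with the lowest share of unique reads, 85.5% and 86.2%, so part of their reads could belong to similar sequence elsewhere.

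**Figure D4:**
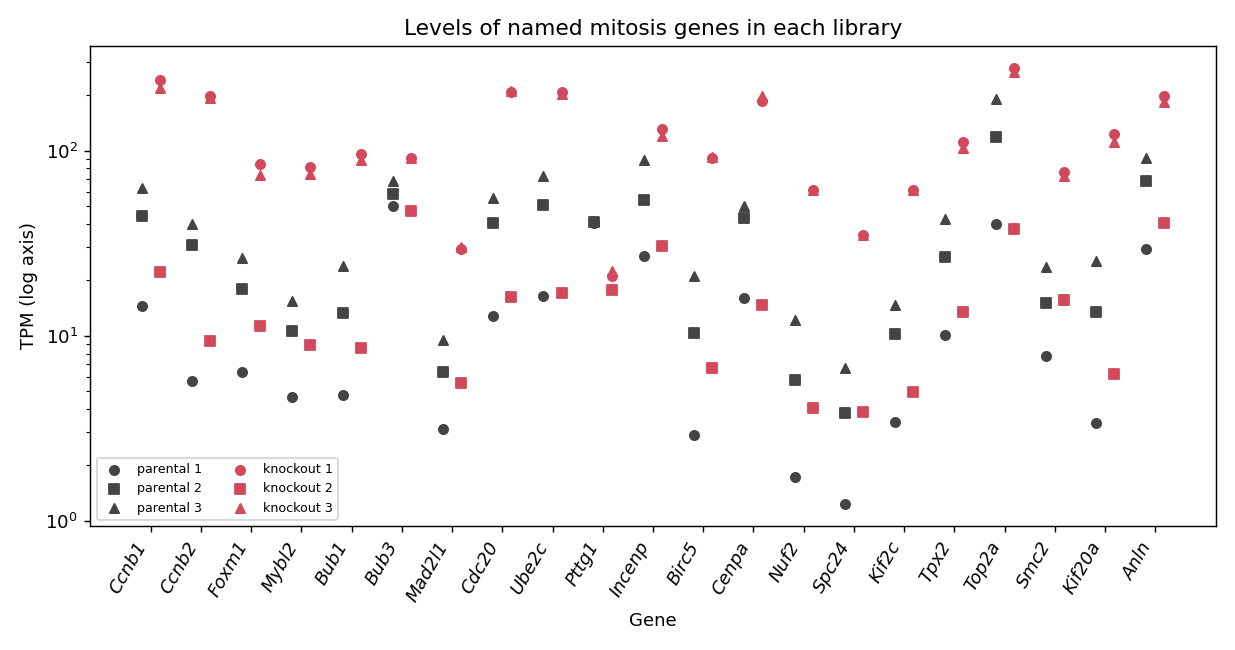
TPM on a log axis for 21 mitosis genes in each of the 6 libraries, parental in grey and knockout in red, with the marker shape giving the replicate. For all but Pttg1, knockout replicates 1 and 3 are the highest points while knockout replicate 2 falls inside or below the parental range.

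The genes differed in how the distance between libraries was divided. Between parental replicates 1 and 3 the TPM ratio ranged from 1.03 (Pttg1) to 10.2 (Cenpf), and from parental replicate 3 to knockout replicate 1 it ranged from 0.505 (Pttg1) to 5.3 (Mybl2). The 2 ratios did not go together in every gene. Cenpf, Mki67 and Nusap1 differed by 10.2, 9.88 and 9.9 times between parental replicates 1 and 3, and knockout replicate 1 was 1.98, 1.78 and 2.09 times parental replicate 3. Nuf2, Kif20a and Birc5 differed by 7, 7.44 and 7.17 times and then by 5.02, 4.86 and 4.34 times. In 7 of 46 genes both knockout replicates 1 and 3 were at least 4 times parental replicate 3 (Ccnb2, Mybl2, Birc5, Nuf2, Spc24, Kif2c and Kif20a). In 12 genes both ratios were below 2, among them Aurka, Aurkb, Incenp, Cdca8, Espl1, Top2a and Prc1. The 12 include Pttg1, where the ratios were 0.505 and 0.539, a fall. Both knockout replicates 1 and 3 stood further above parental replicate 3 than that library stood above parental replicate 1 in 5 genes (Mybl2, Mad2l1, Cenpa, Smc2 and Ncapd2). These are ratios between single libraries and carry no test.

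**Figure D5:**
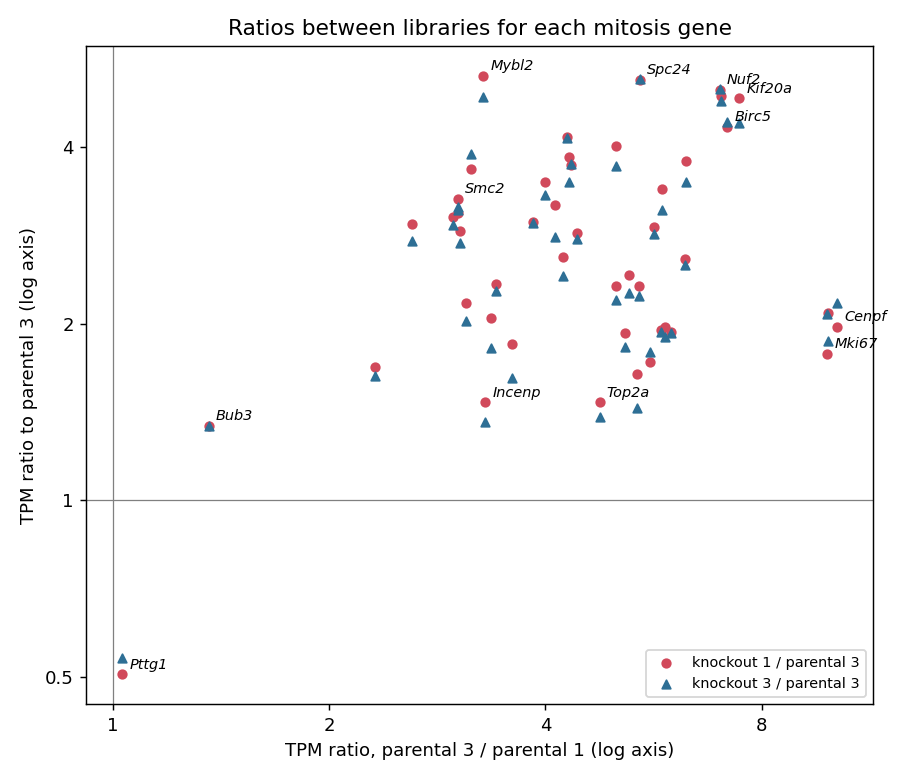
Each gene's TPM ratio of parental replicate 3 to parental replicate 1 (x axis, log) against the TPM ratio of knockout replicate 1 (circles) or knockout replicate 3 (triangles) to parental replicate 3 (y axis, log). Circles and triangles of a gene lie close together, Cenpf and Mki67 sit far right at a ratio near 2, and Mybl2 sits at 5.3 with a parental ratio of 3.28.

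Of 113 other genes of mitosis, 6 were higher and 0 lower (edgeR; 5.31%, against 3.48% of all genes called higher), with a median log2 fold change of 0.97. DESeq2 called 26 higher (23%, against 11.6% of all genes) and 1 lower (0.885%, against 11%). Limma-voom called 4 higher (3.54%, against 2.68%) and 0 lower (against 5.45%). With edgeR, the higher calls fell to 0 with the replicate block or without parental replicate 2 or 3 or knockout replicate 1 or 3. They fell to 1 without parental replicate 1. An unadjusted p below 0.05 was found for 40 of the 113 (35.4%), near the 32.5% of all tested genes. The 6 called by edgeR with all libraries were Cenpt, Anapc13, Stag1, Mis12, Smc3 and Tfdp1. Cenpt, a DNA-contacting inner kinetochore protein, was at 16.1, 15.1 and 10.8 TPM in parental and 42.6, 20 and 40.8 TPM in knockout replicates 1 to 3 (log2 fold change 1.37 ± 0.30, SE; adjusted p = 0.04). Anapc13, a small subunit of the anaphase-promoting complex, was at 20.4, 23 and 21 TPM and at 60.3, 29.5 and 63.2 TPM (log2 fold change 1.32; adjusted p = 0.0399). Stag1, a cohesin subunit, was at 18, 17.9 and 14.1 TPM and at 37.4, 25.7 and 34.8 TPM (log2 fold change 1.04; adjusted p = 0.0224). In all of these, knockout replicate 2 was above the parental range. They were picked by a call over all 6 libraries, which favours that position. All knockout libraries were above the parental range in 0 of the 46 genes, against 12.2% of all tested genes.

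By group, 2 of 31 other kinetochore genes (6.45%) and 1 of 17 genes of the anaphase-promoting complex (5.88%) were higher. So were 2 of 16 of cohesin and condensin II (12.5%) and 1 of 9 of the DREAM and MuvB complexes (11.1%). Over all tested genes 3.48% were called higher, and each of these shares rests on 1 or 2 genes. None of 14 other entry regulators and 26 other spindle and cytokinesis genes passed, where 4 (28.6%) and 5 (19.2%) had an unadjusted p below 0.05, below the 32.5% of all tested genes, and DESeq2 called 1 each (7.14% and 3.85%, against 11.6% of all genes). Of 26 S phase genes, 6 were higher (23.1%, against 3.48% of all genes). DESeq2 called 20 higher (76.9%, against 11.6% of all genes) and limma-voom 1 (3.85%, against 2.68%). With the replicate block, edgeR called 3 (11.5%, against 0.423%). It called 1 without parental replicate 1 (3.85%, against 0.968%) and 0 without parental replicate 2 or 3 or knockout replicate 1 or 3. Among the 6 called, the largest log2 fold changes were 3.18 for Tyms, thymidylate synthase, 2.99 for Ccne2, cyclin E2, and 1.84 for Mcm4, of the replicative helicase (edgeR adjusted p = 0.0265, 0.0399 and 0.0435). Tyms was at 3.57, 2.99 and 3.13 TPM in parental and 37.1, 8.03 and 38.6 TPM in knockout replicates 1 to 3. Ccne2 was at 2.84, 2.79 and 5.1 TPM and at 36.1, 6.78 and 39.2 TPM, and Mcm4 at 18.8, 24.2 and 32.6 TPM and at 114, 38.7 and 108 TPM. In all 3, knockout replicate 2 was above the parental range but far below the other knockout libraries. These 3 were also picked by a call over all 6 libraries, which favours a position above the parental range. Without knockout replicate 2, 75 of the 113 genes were higher and 2 lower, and 25 of the 26 S phase genes were higher, where 23.0% of all genes were called higher and 23.2% lower.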

How the data were processed

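RNA-seq tables of 3 parental and 3 p62 knockout MOC2 libraries were used, grouped by genotype label. The authors deposited 2 whole-number read counts per gene, per the file headers (total and unique exon reads), which were not normalized. The deposited TPM, beside an exon length per gene, equals total exon reads over exon length, scaled per library (largest difference on recomputation 6e-11). The submitters' processing notes name GRCm39. The labels describe a directional library kit; the aligner, the counter, its annotation and its strand option were not given in the sources used, so reads of overlapping or antisense genes could not be told apart.

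Total exon reads went into the quasi-likelihood test of edgeR 4.0.16 (glmQLFit, glmQLFTest; R 4.3.3) after filterByExpr and TMM scaling, with genotype as the single term and p-values adjusted by Benjamini-Hochberg over 12775 genes. All 46 genes passed the filter. Called means an adjusted p below 0.05, SEs come from the quasi-likelihood F statistic, and fold changes are knockout over parental. The procedure was tested on simulated data in which all libraries of a group shared the same expected expression. That test does not cover a deviating library such as knockout replicate 2. Libraries held 32821860 to 41763980 exon reads, and a count of 0 allows up to 3 reads (0.0718 to 0.0914 CPM), which covers counting error only.

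Values in all 6 libraries are given for called members and, per role, for those with the highest mean TPM, the largest positive log2 fold change or the smallest p; of other lists, for up to 3 called genes per direction. Genes and ratios singled out beyond this were chosen after their values were seen. The members and lists were chosen with earlier results of these data known. Other settings tried were scaling by RLE or upper quartile, a filter of at least 1 read or of at least 5 CPM in 3 libraries, DESeq2 1.42.0, limma-voom (limma 3.58.1), unique exon reads, the replicate block and each library left out. Promoter windows are RefSeq's on GRCm38.p6, matched by symbol.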

Additional observations from a re-analysis of the deposited data

How the results depend on the processing

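Of the 46 genes, 45 had a positive and 1 a negative estimate in the fit described and none changed sign under the 16 other settings; the median log2 fold change stayed between 1.22 and 2.20. DESeq2 called 2881 genes in all, 5 members higher, 26 other mitosis genes higher and 1 lower, and 20 S phase genes higher; limma-voom called 1 S phase gene. Leaving out 1 library moved the count of all called genes between 0 and 5973, of members higher between 0 and 33, of members lower between 0 and 1, of other mitosis genes higher between 0 and 75 and lower between 0 and 2, and of S phase genes higher between 0 and 25. Only leaving out knockout replicate 2 raised any of these counts, and it left the members called lower at 1. Without parental replicate 2, edgeR called 0 genes, with 2494 at an unadjusted p below 0.05; limma-voom, added after seeing this, called 0, while DESeq2 called 1 member lower and 0 higher. The log2 fold change of Sqstm1 was -2.70 with RLE scaling (edgeR adjusted p = 0.0502), -2.72 with the stricter filter (adjusted p = 0.0547), and -3.93 to -2.32 with 1 library left out (adjusted p = 0.000399 to 0.178); without parental replicate 2 it was -2.71 by DESeq2 (adjusted p = 0.0987) and -3.16 by limma-voom (adjusted p = 0.173).

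Deviations from the group means of same-numbered libraries correlated across genes at -0.366, -0.105 and 0.284. Parental replicate 1 gave -0.366, 0.391 and -0.331 against knockout replicates 1 to 3. Because knockout replicate 2 stood apart from knockout replicates 1 and 3, these values cannot show whether same-numbered cultures were handled together. With the replicate block, 257 genes were called, with 0 members higher or lower, 0 other mitosis genes higher and 3 S phase genes higher. Where 1 library is left out the fit has fewer residual degrees of freedom, and the cause of lost calls was otherwise not tested.

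The difference in the TPM share of the 46 genes, 0.209 percentage points, lay between 0.136 and 0.345 with 1 library left out. With windows from 100 bases before the start, CHR letters were in 71.4% and CCAAT in 61.9% of member promoters, against 8.59% and 23.4% of all.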
